A study of Mus musculus with 12 samples.

Results

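The 9 genes Ttr, Clic6, Folr1, Aqp1, Ace, Kl, Sostdc1, Ecrg4 and Col8a1 are used as markers of the choroid plexus, and their RNA levels were followed in the hypothalamus of 12 mice. The genes were given by name, with no threshold on a measured value. Every probe named for one of them was taken, and a probe counted as measured where its detection p fell below 0.01 on 3 or more of the 12 arrays. By that rule 7 of the 9 genes were measured, among 13547 tested genes and unnamed probes (called features below). Folr1, the folate receptor that carries folate into cerebrospinal fluid, and Aqp1, a water channel, had no named probe and were not analysed here. That does not show that the array lacks them.

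All mice were of the inbred strain FVB/NJ-Jax and were sampled at postnatal day 180. The groups were female small litter, female control, male small litter and male control, with 3 mice and 3 Illumina bead arrays in each. Mice reared in small litters get more milk per pup, and such rearing is used as a model of early overnutrition. The control and small-litter mice shared strain, age and tissue, and the labels name no transgene or drug.

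The choroid plexus is a fringe of epithelium over a vascular core that hangs in the ventricles of the brain and secretes cerebrospinal fluid. Its epithelium makes transthyretin in very large amounts. The third ventricle lies between the left and right hypothalamus, but neurons and glia of the hypothalamus itself are not a known main source of Ttr. Less specific members of the set, such as Ace and Col8a1, are also known from blood vessels.

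The arrays had similar depth of signal: 39.7% to 41.9% of probes were detected on each, and the median bead signal was 103 to 127. Of 17 hypothalamic marker genes, 13 were tested and all 13 were detected on all 12 arrays. Male small litter 2 and 3 stood apart on the first principal component, at 21.4 and 27.9 against at most 4.62 on the other arrays. The same component separated the sexes, with female arrays at -12.2 to -4.41 and male arrays at 1.15 to 27.9. Female control 3 and male control 2 stood apart by 12 meningeal genes, whose mean centred level was 1.23 and 1.24 there on the log2 scale, 0.45 on male small litter 2 and at most -0.19 on the others. Values without these arrays are given where they change a result by much.

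Promoter sequences are shown for Kl and Ace, which are among the 4 genes that followed Ttr most closely within groups, and for Col8a1, which was added after its values were seen because Kl, Ace and Col8a1 gave the 3 highest pairwise correlations described below. Each sequence is the 250 bases before the annotated start in RefSeq (GRCm38.p6), 5' to 3' on the strand of the gene. Capitals mark an E-box (CANNTG), bound by basic helix-loop-helix factors, or TAATCC, bound by the OTX family, which includes OTX2, a factor needed for the plexus epithelium.
Kl promoter, chr5:150952357-150952606, strand +: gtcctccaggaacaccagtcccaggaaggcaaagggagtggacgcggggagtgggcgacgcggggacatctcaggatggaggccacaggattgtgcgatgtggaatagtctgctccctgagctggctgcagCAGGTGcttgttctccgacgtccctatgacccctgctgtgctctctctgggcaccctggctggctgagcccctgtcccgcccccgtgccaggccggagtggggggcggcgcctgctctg
Ace promoter, chr11:105967698-105967947, strand +: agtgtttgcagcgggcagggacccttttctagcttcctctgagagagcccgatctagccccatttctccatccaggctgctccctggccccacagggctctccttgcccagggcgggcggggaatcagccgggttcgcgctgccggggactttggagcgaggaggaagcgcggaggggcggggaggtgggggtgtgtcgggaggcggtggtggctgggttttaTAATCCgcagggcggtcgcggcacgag
Col8a1 promoter, chr16:57754738-57754987, strand -: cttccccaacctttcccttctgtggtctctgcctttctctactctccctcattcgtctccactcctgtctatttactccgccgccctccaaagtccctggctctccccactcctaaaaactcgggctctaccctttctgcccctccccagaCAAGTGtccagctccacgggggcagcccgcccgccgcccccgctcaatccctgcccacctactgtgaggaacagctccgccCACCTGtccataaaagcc
Both strands were searched. TAATCC was found in the Ace window only, and 6.25% of 32851 promoters of the same length hold it. CANNTG was found in the Kl and Col8a1 windows, and 66.2% of all promoters hold it. TAAACA, bound by the FOX family and held by 12.0% of promoters, was in none of the 3 windows. These are matches of letters, and no binding was measured.

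Ttr encodes transthyretin, the carrier of thyroxine and of retinol-binding protein in cerebrospinal fluid and blood. Its raw bead signal was 240, 546 and 552 in small-litter females, against 1179, 3185 and 357 in control females. It was 909, 666 and 460 in small-litter males, against 231, 777 and 463 in control males. The brightest array, female control 2, and the dimmest, male control 1, are both controls.

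On the normalized log2 scale (background-corrected, quantile-normalized log2 intensity, used for all values below), Ttr was 7.22, 8.94 and 8.83 in small-litter females and 9.93, 11.54 and 7.95 in control females. It was 9.60, 9.41 and 8.84 in small-litter males and 7.22, 9.38 and 8.46 in control males. The groups overlapped in both sexes, and the 12 values spanned 4.31 on the log2 scale, a 19.9-fold range. The spread of Ttr between mice of 1 group was 1.17 on the log2 scale (pooled SD), and 0.0443% of all features varied that much or more within groups. In bulk tissue, a different number of plexus cells and a different amount of Ttr RNA per cell cannot be told apart.

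Clic6, a member of the chloride intracellular channel family that is abundant in the plexus epithelium, was the next clearest signal above background. Its log2 level was 8.14, 8.45 and 8.65 in small-litter females and 8.33, 8.72 and 8.57 in control females. It was 8.60, 8.68 and 8.23 in small-litter males and 8.40, 8.49 and 8.97 in control males. All 4 groups overlapped, and the whole range was 1.78-fold over mice in which Ttr ranged 19.9-fold.

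Kl encodes klotho, a coreceptor for FGF23 that is made by kidney and by the plexus epithelium and is also shed into the fluid. Kl was 5.30, 5.62 and 5.65 in small-litter females, all below the 5.69, 6.48 and 6.19 of control females. In males the small-litter values were 5.37, 5.32 and 5.24, and the control values were 5.24, 6.49 and 5.83. The 3 small-litter males lay close together, and control male 1 was as low as the lowest of them, so the male groups overlapped.

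Ecrg4 encodes augurin, the precursor of a secreted peptide that is enriched in choroid plexus. Its log2 level was 5.50, 5.14 and 5.27 in small-litter females, all below the 5.74, 5.77 and 5.81 of control females. In males it was 5.37, 5.86 and 5.47 in small litters and 5.52, 5.56 and 4.56 in controls. The lowest value, 4.56 on male control 3, was the only array of 12 on which the probe was not detected.

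Sostdc1 encodes a secreted antagonist of BMP and WNT signalling. It was 5.84, 6.07 and 6.32 in small-litter females and 5.75, 5.90 and 5.72 in control females. In males it was 5.77, 5.86 and 5.26 in small litters and 5.42, 5.45 and 5.89 in controls. The litter groups overlapped in both sexes.

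Ace encodes angiotensin-converting enzyme, which makes angiotensin II and is also found on the endothelium of blood vessels. The Ace values were 6.18, 6.37 and 6.65 in small-litter females and 6.32, 6.50 and 6.53 in control females, which overlap. In males all 3 small-litter values, 6.26, 5.96 and 5.81, lay below the control values of 6.32, 6.45 and 6.44. A second Ace probe was detected on 1 of 12 arrays and was not measured.

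Col8a1 encodes the alpha 1 chain of collagen VIII, a short-chain collagen of vessel walls and basement membranes. It was 6.14, 6.26 and 6.48 in small-litter females, below the 6.56, 6.49 and 6.74 of control females. It was 6.31, 6.33 and 5.94 in small-litter males, below the 6.51, 6.53 and 6.37 of control males. Small-litter and control mice did not overlap in either sex, though in females the nearest values, 6.48 and 6.49, almost met. A second, dimmer Col8a1 probe, detected on 11 arrays, overlapped in both sexes: it was 6.00, 5.30 and 5.31 in small-litter females and 5.38, 5.22 and 5.71 in control females, and 5.54, 5.23 and 4.96 in small-litter males and 5.58, 5.37 and 5.32 in control males.

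Signal above background differed between these probes. The raw signal of Ttr was 1.92 to 24.6 times the lowest detected signal of its array, and that of Clic6 2.94 to 5.33 times. For Kl the ratio was 1.03 to 1.51, for Sostdc1 1.04 to 1.35, for Ecrg4 0.905 to 1.21, for Ace 1.18 to 1.5 and for Col8a1 1.22 to 1.61. Apart from Ttr and Clic6, the genes sat near the limit of detection on every array.

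**Figure D1:**
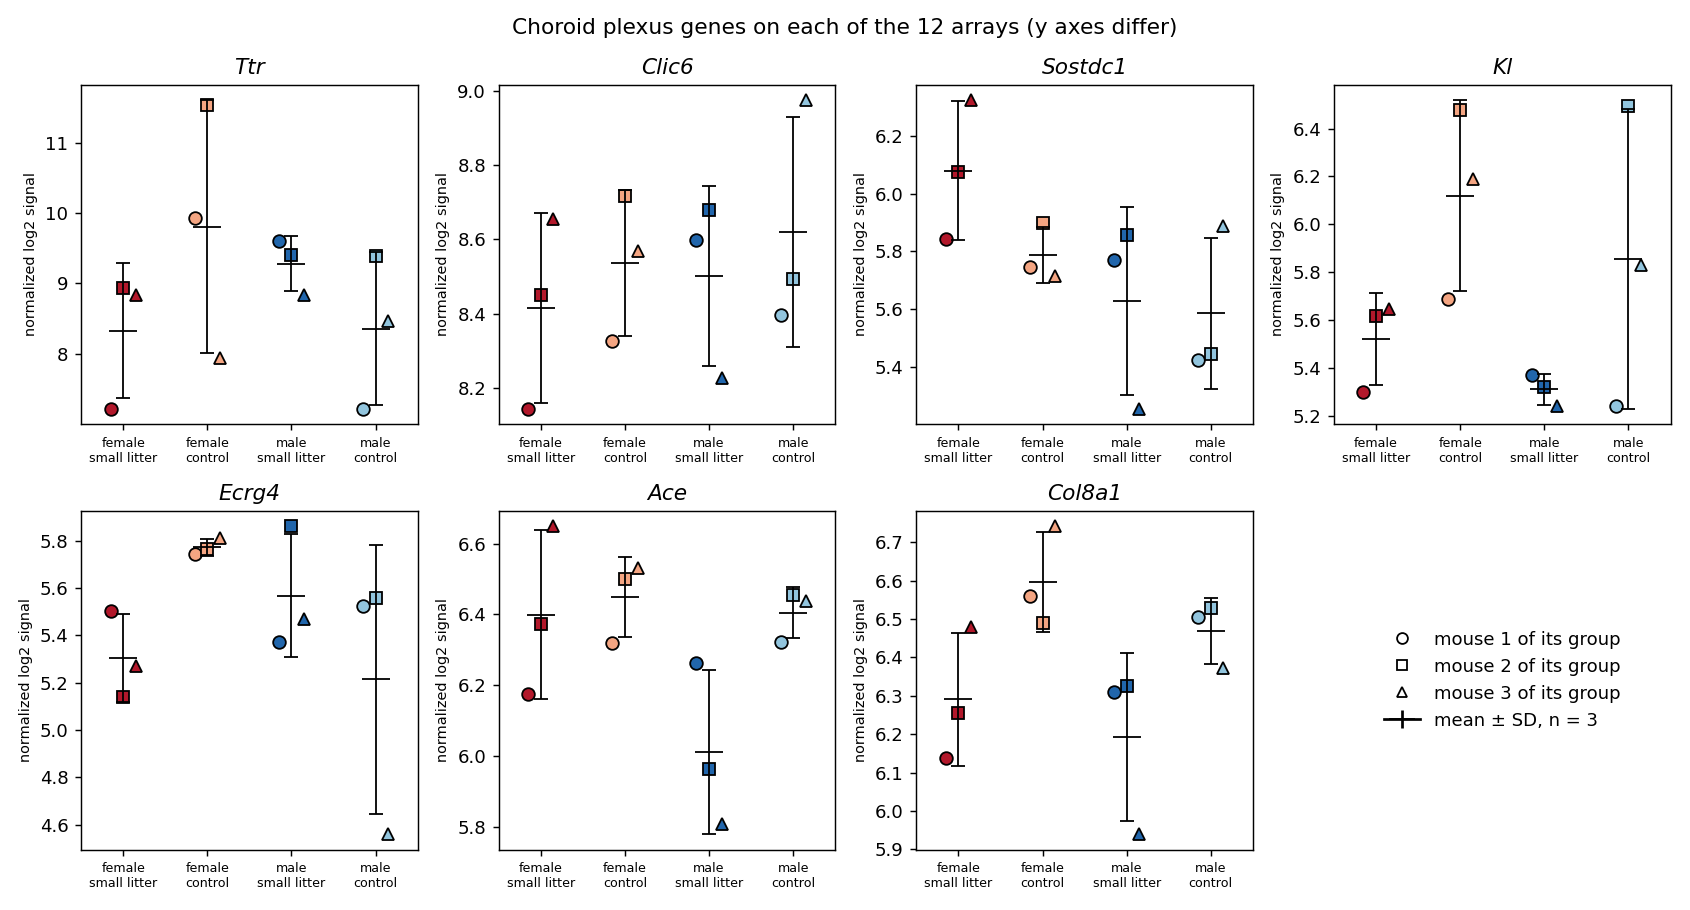
Normalized log2 signal of the 7 measured genes on each of the 12 arrays, with 1 panel a gene and separate y axes; symbols are mice and the bars are the group mean ± SD (n = 3). Ttr spans 7.22 to 11.54, with its highest value on female control 2, while the other genes range over at most 2.47-fold.

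In females, 6 of the 7 genes had lower means in small litters than in controls, where 49.3% of all features were lower. Without female small litter 1, 4 of the 7 were lower. None of the 7 passed the test. The test was limma's moderated test over all features, with Benjamini-Hochberg adjustment and a threshold of 0.05; 0 members were called, against 0% of all features. At an unadjusted p under 0.05, there were 2 members (Kl and Col8a1) against 3.34% of features. The members' median difference was -0.31, against 0.00 over all features.

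Kl averaged 5.52 ± 0.19 in small-litter females and 6.12 ± 0.40 in control females (SD, n = 3 each), a log2 difference of -0.60 ± 0.26 (SE) with an adjusted p of 0.9996 in limma. Col8a1 averaged 6.29 ± 0.17 in small-litter females and 6.60 ± 0.13 in control females, a difference of -0.31 ± 0.13. Ecrg4 averaged 5.30 ± 0.19 in small-litter females and 5.77 ± 0.04 in control females, a difference of -0.47 ± 0.22. These 3 genes were the members whose female groups did not overlap, with small litters below, as was so for 4.46% of all features. No member's female groups were apart with small litters above, as 5.13% of features were.

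Ttr averaged 8.33 ± 0.96 in small-litter females and 9.80 ± 1.80 in control females. Its difference of -1.47 ± 0.76 had a 95% interval of -3.11 to 0.17. Female control 2 and female control 3 decide its size: the difference was -0.61 without the first and -2.40 without the second. Clic6 (-0.12 ± 0.18), Ace (-0.05 ± 0.14) and Sostdc1 (0.29 ± 0.18) had an adjusted p of 0.9996 in limma as well.

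In males, 4 of the 7 genes had lower means in small litters (5 under median scaling), where 52.4% of all features were lower. None passed limma's test after adjustment, and 1 had an unadjusted p under 0.05 (Ace), against 13.4% of features. Ace averaged 6.01 ± 0.23 in small-litter males and 6.41 ± 0.07 in control males, a difference of -0.39 ± 0.14 with an adjusted p of 0.285 in limma. It was -0.14 without male small litter 2 and 3, the arrays that stood apart, and -0.29 without the second of them alone. Over all alternatives run, the male Ace difference lay between -0.52 and -0.14.

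Kl averaged 5.31 ± 0.06 in small-litter males and 5.86 ± 0.63 in control males, a difference of -0.54 ± 0.26. That of Kl was -0.23 without male control 2, one of the meningeal arrays. Col8a1 averaged 6.19 ± 0.22 in small-litter males and 6.47 ± 0.09 in control males, a difference of -0.28 ± 0.13. Ace and Col8a1 were the members whose male groups did not overlap, with small litters below, as was so for 7.56% of features. No member's male groups were apart with small litters above, as 7.29% of features were.

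Ttr ran the other way in males in its means, at 9.28 ± 0.39 in small-litter males and 8.36 ± 1.08 in control males, a difference of 0.93 ± 0.76. It was 0.36 without male control 1 and 1.44 without male control 2. Ecrg4 averaged 5.57 ± 0.26 in small-litter males and 5.21 ± 0.57 in control males, a difference of 0.35 ± 0.22, which was 0.03 without male control 3. Clic6 (-0.12 ± 0.18) and Sostdc1 (0.04 ± 0.18) had differences within their errors, and that of Sostdc1 was -0.01 under median scaling. Col8a1 was the 1 member that did not overlap in either sex, with small litters below in both, which was so for 0.251% of features.

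The difference in litter effect between the sexes, females minus males, passed the adjusted test for 0 of 7 members and 0% of features in limma. At an unadjusted p under 0.05 there were 2 members, against 9.75% of features. It was below 0 for 5 members, as for 48.2% of features, for 4 under median scaling or the authors' values, for 3 without both meningeal arrays and for 2 without female small litter 1. For Ttr it was -2.40 ± 1.07 (adjusted p = 0.494 in limma), and for Ecrg4 -0.83 ± 0.32 (adjusted p = 0.468 in limma). Without male control 3 the value for Ecrg4 was -0.50, and without female control 2 that for Ttr was -1.53.

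Averaged over the sexes, 6 of 7 members were lower in small litters, where 52% of features were lower. In limma 0 members and 0% of features passed after adjustment, and 3 members had an unadjusted p under 0.05, against 6.08% of features. These were Kl at -0.57 ± 0.18 (0.673-fold), Col8a1 at -0.29 ± 0.09 (0.817-fold) and Ace at -0.22 ± 0.10 (0.857-fold), each with an adjusted p of 0.814 in limma. The members' median was -0.22, against -0.01 over all features. Without both meningeal arrays, 5 of 7 members were lower. By unadjusted p, Col8a1 ranked 84 and Kl 109 of 13547 features.

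The averaged Kl difference was -0.41 without male control 2, and without both meningeal arrays it was -0.39. That of the brighter Col8a1 probe was -0.24 without both arrays. The second Col8a1 probe gave -0.04 ± 0.14, against -0.29 ± 0.09 for the brighter one. Averaged differences of Sostdc1 (0.17 ± 0.12), Clic6 (-0.12 ± 0.13), Ecrg4 (-0.06 ± 0.16) and Ttr (-0.27 ± 0.54) did not pass either. For Ttr the 95% interval was -1.43 to 0.89.

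**Figure D2:**
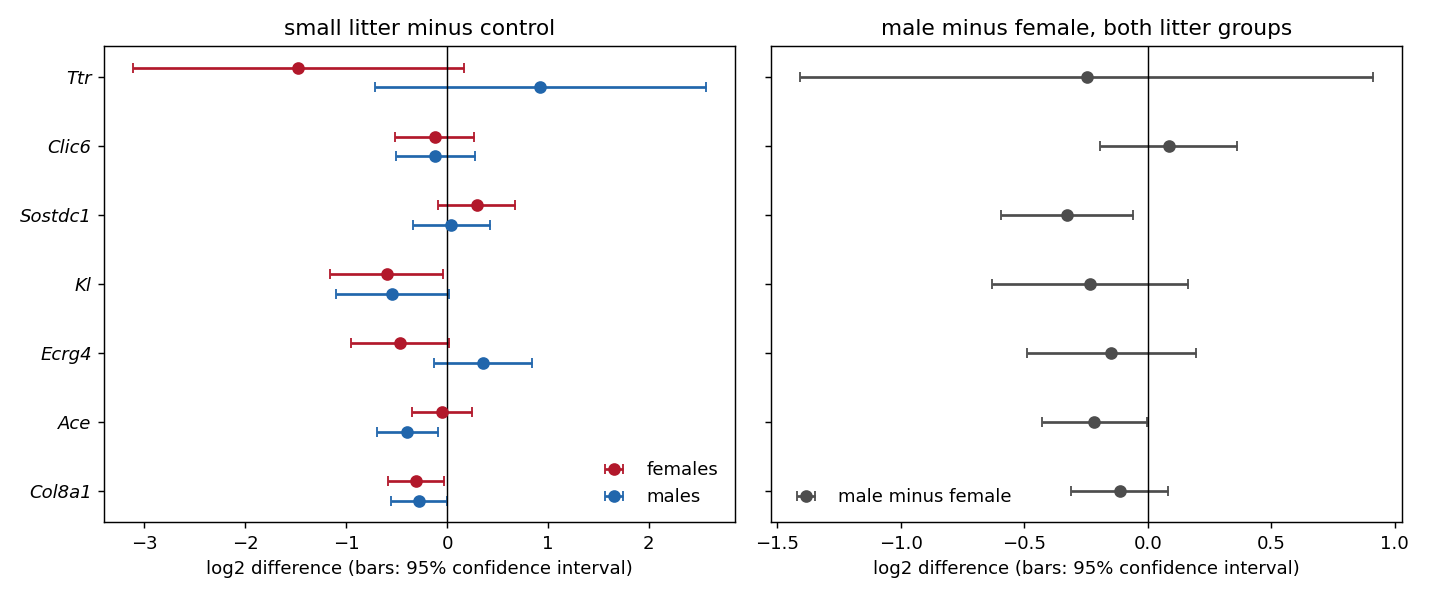
Log2 differences of the 7 genes from the fit over all features, with small litter minus control by sex on the left. The right panel gives male minus female, averaged over the litter groups. Points are estimates and bars 95% confidence intervals. The Ttr intervals are the widest, and the female and male Ttr estimates of -1.47 and 0.93 lie on opposite sides of 0.

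Between the sexes, 6 of the 7 genes had lower means in males than in females, where 51.2% of features were lower. In limma 0 members passed after adjustment, against 4.66% of features (631). An unadjusted p under 0.05 was reached by 2 members, against 24.2% of features. These were Sostdc1 at -0.33 ± 0.12 (adjusted p = 0.134 in limma) and Ace at -0.22 ± 0.10 (adjusted p = 0.198 in limma), male minus female. For Ttr the sex difference was -0.25 ± 0.54. No member separated all male arrays from all female arrays, while 1.5% of features did so with males lower. All 6 male arrays had a lower median bead signal than all 6 female arrays, whose part in these values was not tested.

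Whether the 7 genes varied together from mouse to mouse, as markers of 1 tissue, was asked from their pairwise correlations. Over the 12 mice, 0 of the 21 pairs passed Benjamini-Hochberg adjustment by Pearson or by Spearman permutation tests. The median r was 0.28, with a range of -0.40 to 0.76, and 18 of 21 pairs were positive. After each group's mean was subtracted, so that group differences could not add to it, the median r was 0.41, with a range of -0.52 to 0.93, and 15 pairs were positive.

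The highest pair over all mice was Ace with Col8a1, with r = 0.76 and rho = 0.63 (permutation p = 0.0045 and 0.0322, adjusted 0.0945 and 0.225, n = 12). It was 0.61 without the 2 mice farthest in Ace, and it was 0.64 within females and 0.84 within males. Kl with Ace had r = 0.65 and rho = 0.76 (permutation p = 0.0225 and 0.00543, adjusted 0.219 and 0.114, n = 12). Kl with Col8a1 had r = 0.62 and rho = 0.66 (permutation p = 0.0314 and 0.0222, adjusted 0.219 and 0.225, n = 12). Both were 0.69 without the 2 mice farthest in Kl. These 3 genes are also the ones with an unadjusted p under 0.05 in the averaged litter comparison. With group means subtracted, r was 0.17 for Kl with Col8a1, 0.49 for Kl with Ace and 0.72 for Ace with Col8a1.

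Over all mice, no pair of Ttr with another member passed. Its r with Kl was 0.49 and rho 0.36 (permutation p = 0.112 and 0.257, adjusted 0.446 and 0.591, n = 12), and r was 0.07 without the 2 mice farthest in Ttr. On male control 2 Ttr was 9.38 with Kl at 6.49, while on male small litter 1 Ttr was 9.60 with Kl at 5.37. On female control 3 Kl was high, at 6.19, with Ttr low, at 7.95.

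Within groups, r of Ttr with Kl was 0.61, and 3.56% of all features followed Ttr that closely or more. The same r was 0.92 without female control 3 and male control 2, and 0.50 without the array with the highest Ttr. Within-group r of Ttr was 0.44 with Sostdc1, 0.42 with Clic6 and 0.35 with Ace, values reached by 11.3%, 12.4% and 17.2% of features. It was -0.03 with Col8a1 and -0.16 with Ecrg4, where 54.9% and 67.7% of features were as high or higher.

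The closest pair within groups was Clic6 with Sostdc1, at 0.93, a value that 0.0295% of features reached with Clic6. Over all mice their r was 0.44 and rho 0.56 (permutation p = 0.155 and 0.0621, adjusted 0.446 and 0.326, n = 12), with r = 0.64 without the 2 mice farthest in Clic6, and r was 0.91 within males and 0.38 within females. Left out one at a time, no array moved the within-group value outside 0.91 to 0.97. Within groups, r of Ecrg4 was -0.52 with Clic6, -0.43 with Sostdc1, -0.25 with Ace, -0.01 with Kl and 0.27 with Col8a1. The array on which Ecrg4 was not detected, male control 3, had the highest Clic6 of all, at 8.97. Over all mice, Ecrg4 with Clic6 had r = -0.40 and rho = 0 (permutation p = 0.201 and 1, adjusted 0.446 and 1, n = 12), with r = 0.20 without the 2 mice farthest in Clic6, 0.08 within females and -0.62 within males.

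**Figure D3:**
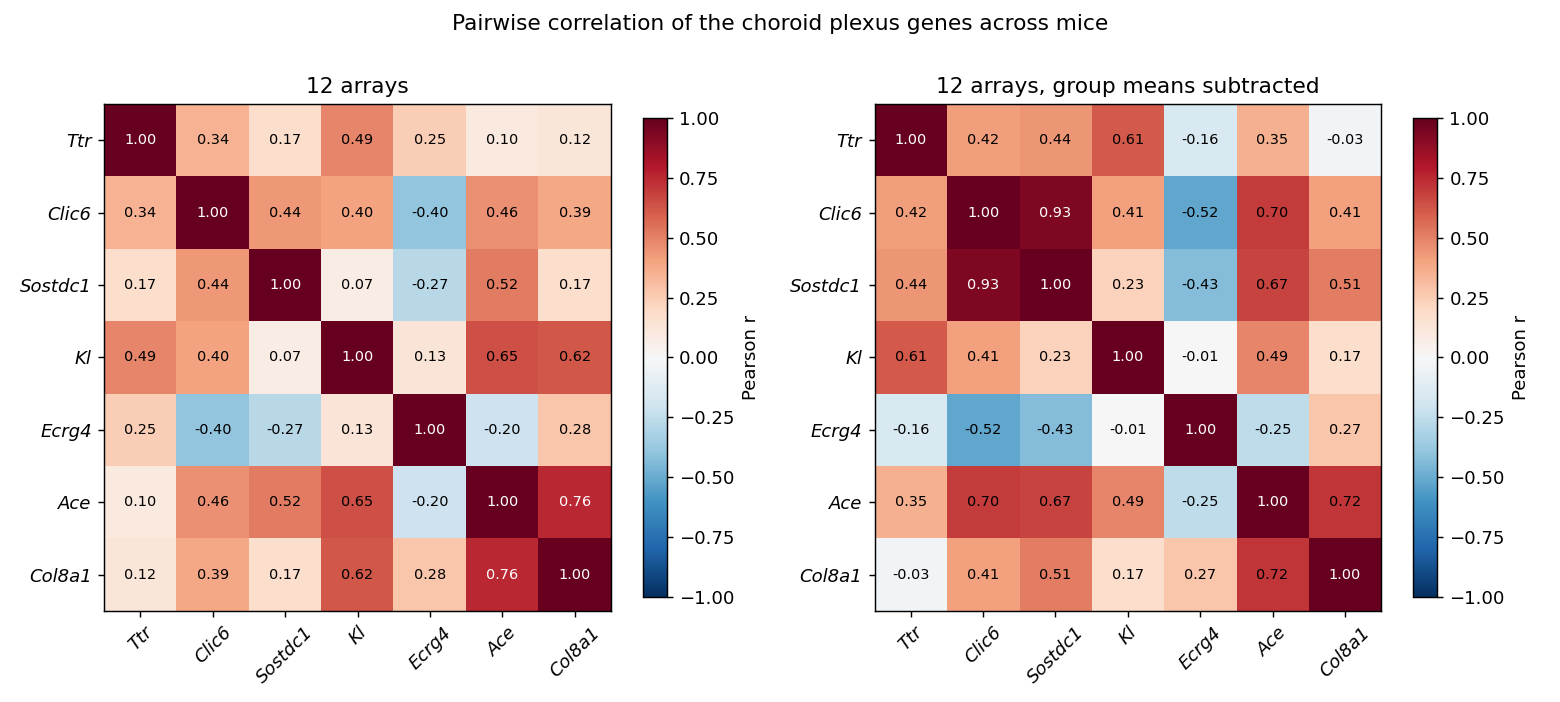
Pearson r for each pair of the 7 genes over 12 mice, on the left with all values and on the right after subtraction of the group means; colour gives r from -1 to 1. Most cells are positive. The Ecrg4 row is mixed in sign on the left, and on the right it is positive only with Col8a1 (0.27). The strongest cells are Ace with Col8a1 (0.76) on the left and Clic6 with Sostdc1 (0.93) on the right.

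**Figure D4:**
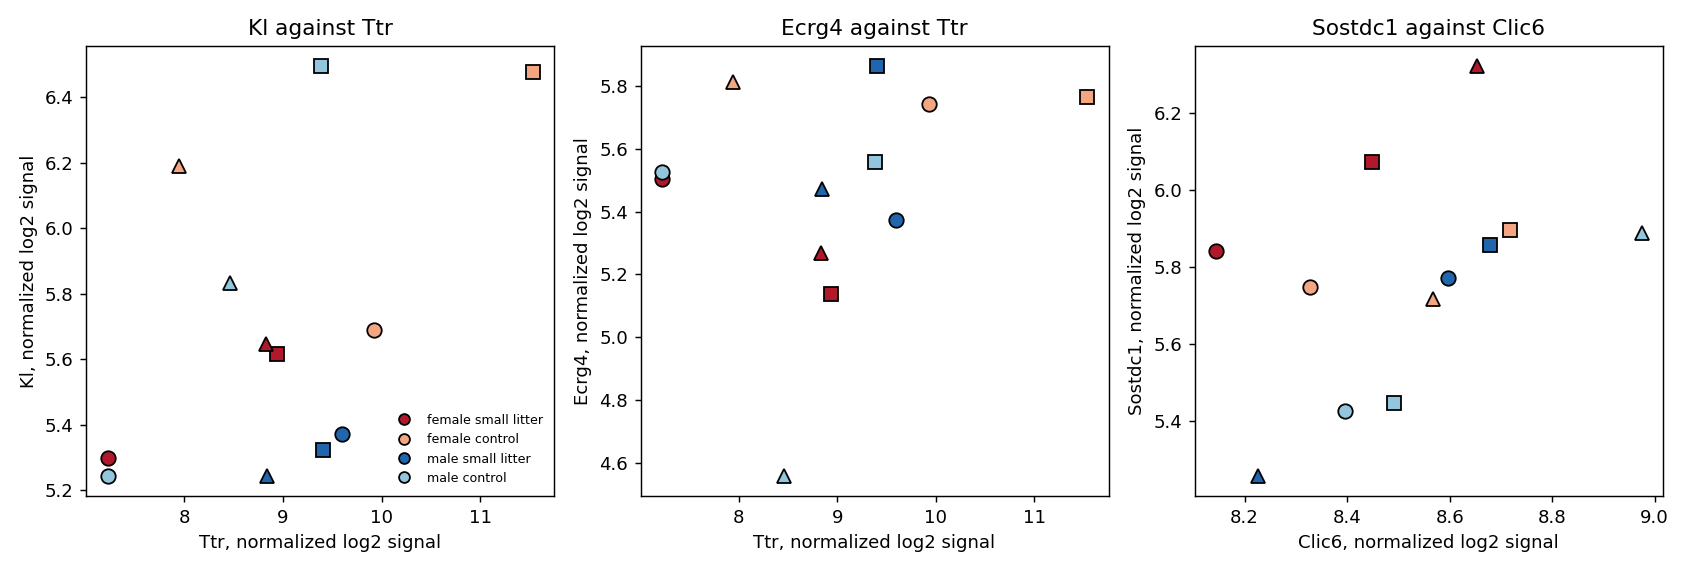
Normalized log2 signal of Kl against Ttr, of Ecrg4 against Ttr and of Sostdc1 against Clic6 in the 12 mice; colours are the 4 groups, and circles, squares and triangles are replicates 1, 2 and 3. The 2 mice with the lowest Ttr (7.22) have low Kl, female control 3 has high Kl with a Ttr of 7.95, and the Ecrg4 panel shows no common slope.

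The features most like Ttr within groups were not the other choroid plexus genes. The 10 named features with the highest within-group r over 12 arrays were Spag8 (0.95), Arpc5 (0.92), Rtel1 (0.90), Slc30a4 (0.89), Dmkn (0.89), Ulk3 (0.89), Gldn (0.89), Drc3 (0.88), Lemd1 (0.88) and Rab26 (0.87). A second ranking was by likeness to the mean standardised profile of the 7 genes, with the 7 genes themselves left out beforehand. Its first 10 included Nkx2-1 (0.94), a transcription factor of the developing and adult hypothalamus. AI467606 (0.96), 1500035N22Rik (0.95), Plin5 (0.94) and Fxyd6 (0.92) were also among them. Krt17 and Il16 (0.92 each), Fbxo36 (0.92), Ltk (0.91) and Kdm6b (0.90) made up the rest. These are the highest values out of 10912 named features over 12 arrays and carry no test.

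Each of the 7 genes was also set against the mean level of 8 other lists (other choroid plexus genes, ependyma, meninges, endothelium, thalamus, habenula, hypothalamus and blood), and 0 of the 56 relations passed adjustment by permutation. The highest was Clic6 with the hypothalamic genes, r = 0.77 and rho = 0.76 (permutation p = 0.00352 and 0.0065, adjusted 0.189 and 0.214, n = 12). Clic6 had r = -0.73 and rho = -0.74 with the thalamic genes (permutation p = 0.00674 and 0.00765, adjusted 0.189 and 0.214, n = 12). Kl had r = 0.67 and rho = 0.59 with the other choroid plexus genes (permutation p = 0.0172 and 0.0447, adjusted 0.321 and 0.417, n = 12), whose mean level was highest on the arrays with the highest meningeal levels. Without the 2 mice farthest in the gene named, these 3 values of r were 0.61, -0.57 and 0.55. Within groups, Clic6 and Sostdc1, the closest pair, had r = 0.78 and 0.82 with the hypothalamic genes and -0.78 and -0.73 with the thalamic genes. Over all mice, Sostdc1 had r = 0.47 with the hypothalamic and -0.29 with the thalamic genes. Ttr had r = 0.24 and rho = 0.43 with the other choroid plexus genes (permutation p = 0.451 and 0.162, adjusted 0.819 and 0.648, n = 12). With the genes of the ependyma, which lines the ventricle, Ttr had r = 0.50 and rho = 0.64 (permutation p = 0.0957 and 0.0285, adjusted 0.517 and 0.333, n = 12). Its highest r with any of these lists was with the hypothalamic genes, r = 0.61 and rho = 0.53 (permutation p = 0.0353 and 0.08, adjusted 0.39 and 0.461, n = 12). Without the 2 mice farthest in Ttr, r was 0.58 with the ependymal and 0.19 with the hypothalamic genes.

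The meningeal genes had lower means in the same comparison as Kl and Col8a1. Of 18 listed, 12 were tested and all 12 had lower averaged means in small litters, where 52% of all features were lower, with 0 called. Their summed normalized level on the linear scale was 5878 to 6085 in small-litter females and 5643 to 16703 in control females, and 4633 to 9455 in small-litter males and 5024 to 16489 in control males. The highest sums were on female control 3 and male control 2, and the other controls were at 5643 and 6556 in females and 5024 and 6608 in males. The mean level of the meningeal genes had r = 0.52 and rho = 0.29 with Kl (permutation p = 0.0677 and 0.354, adjusted 0.517 and 0.735, n = 12). With Col8a1 it had r = 0.51 and rho = 0.45 (permutation p = 0.0951 and 0.146, adjusted 0.517 and 0.629, n = 12), and with Ttr r = -0.08 and rho = 0.05 (permutation p = 0.81 and 0.886, adjusted 0.9 and 0.936, n = 12). Without the 2 mice farthest in the gene, r was 0.56 for Kl and 0.18 for Col8a1. Their part in the Kl and Col8a1 values was not tested, beyond the values without the meningeal arrays given above.

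The ependymal genes, of which 11 of 17 were tested, had a summed normalized level on the linear scale of 2169 to 2328 in small-litter females and 2272 to 2477 in control females. In males the sum was 2593 to 2757 in small litters and 2276 to 2403 in controls. The averaged litter comparison called 0 of them, with 6 higher and 5 lower. Endothelial genes, the cell type in which Ace is also known, had 5 higher and 7 lower of 12 tested, with 0 called.

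Col8a1 is also known from vessel walls, and of 12 mural cell genes (smooth muscle and pericytes) 9 were tested, 8 of them with lower averaged means in small litters and 0 called. In that comparison 52% of all features were lower. The summed normalized level of the mural genes on the linear scale was 2071 to 2214 in small-litter females and 2067 to 3256 in control females, and 1742 to 1951 in small-litter males and 1990 to 2931 in control males. Their mean centred level was highest on the meningeal arrays female control 3 and male control 2, at 0.36 and 0.18, and at most 0.16 on the others. The pericyte gene Rgs5 gave -0.23 ± 0.10 and the smooth muscle actin gene Acta2 -0.35 ± 0.20. The part of the mural genes in the Col8a1 difference was not tested. The averaged comparison also called 0 genes of the other tissue lists, with lower means for 2 of 5 tested tanycyte genes, 5 of 5 blood genes, 6 of 9 habenula genes, 3 of 15 thalamic genes, 10 of 13 hypothalamic genes and 1 of 3 pituitary genes.

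Of 40 other genes known from the choroid plexus, 19 had a named probe and were measured, and 0 were called in any litter comparison. Kcnj13, Kcne2, Slc4a5, Enpp2 and Cldn2, which are among its sharper markers, had no named probe and were not analysed here. Single-gene names were available for 18003 of the 20791 probes with processed values, out of 45281 probes. A missing name therefore does not show that the array lacks the gene. In females 15 of the 19 were lower in small litters, with a median difference of -0.16. In males 12 of 19 were lower, with a median of -0.05, and averaged over the sexes 16 of 19 were lower, with a median of -0.09. The share of all features that were lower was 49.3%, 52.4% and 52% in these 3 comparisons, and their medians were 0.00, -0.01 and -0.01. The mean centred level of the 19 genes was highest on the 3 arrays with the highest meningeal levels, at 0.24 on female control 3, 0.21 on male control 2 and 0.09 on male small litter 2. Without female control 3 and male control 2, an alternative added after seeing the data, 12 of 19 were lower in females (median -0.08), 8 of 19 in males (median 0.06) and 13 of 19 averaged (median -0.02).

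Lbp, which encodes lipopolysaccharide-binding protein, had the smallest p of these genes in females. Its values were 4.59, 4.99 and 4.91 in small-litter females, none of them detected, against 5.84, 5.51 and 5.43 in control females. This gives only a bound on the observed means: that of Lbp was at least 1.43-fold lower in small-litter females. The bound leaves out the error of the means, and the difference did not pass (adjusted p = 0.9996 in limma). In males Lbp was 5.35, 5.77 and 5.61 in small litters and 5.08, 5.58 and 5.12 in controls, a difference of 0.31 ± 0.17.

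Otx2, the homeobox factor that specifies the plexus, had an averaged difference of -0.09 ± 0.07, and Lmx1a, a factor of the roof plate, -0.19 ± 0.13. The tight junction gene Cldn1 gave 0.20 ± 0.13, the carbonic anhydrase Car14 -0.11 ± 0.11 and the sulfatase Sulf1 -0.10 ± 0.09. The transporters Slc29a4 and Slc35f3 gave -0.14 ± 0.09 and -0.16 ± 0.08. Slc13a4, a sulfate transporter named after its values were seen, was 9.19 on female control 3, 9.35 on male control 2 and 8.11 on male small litter 2, and 6.34 to 7.02 on the other 9 arrays. Those 3 arrays had the highest meningeal levels, and none of them had the highest Ttr.

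**Figure D5:**
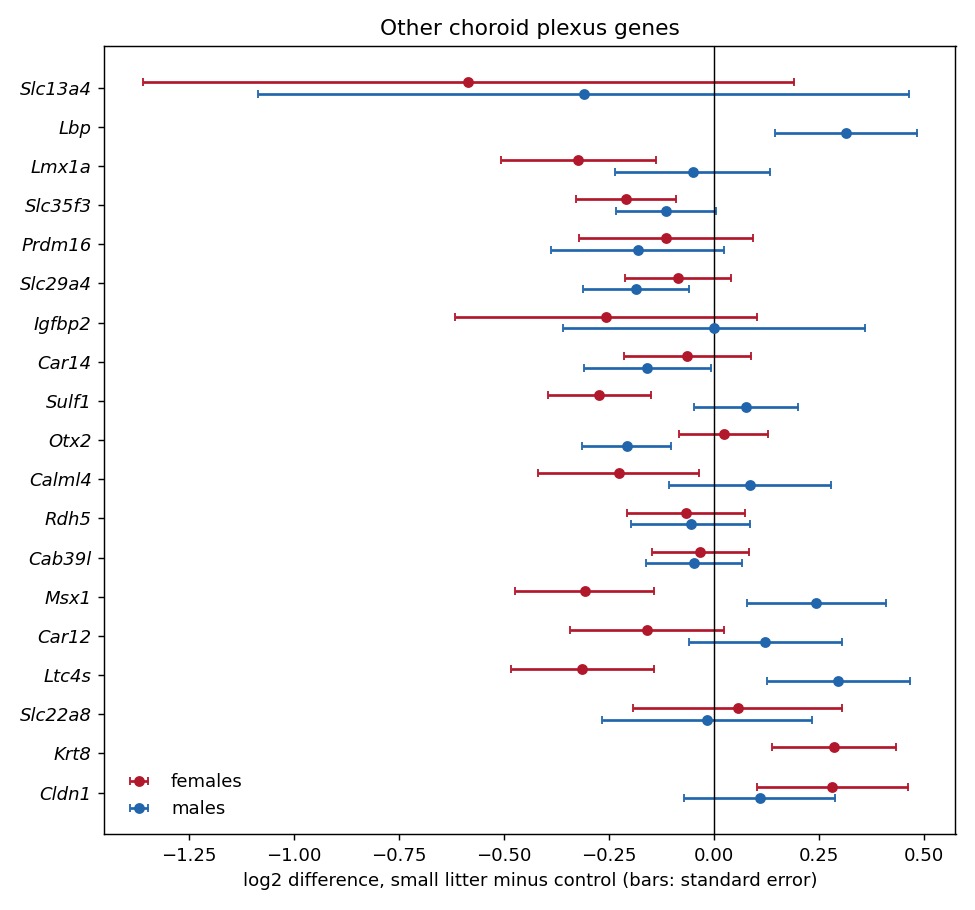
Log2 differences, small litter minus control, of the 19 other choroid plexus genes that were measured, in females and in males; points are estimates and bars standard errors. Lbp in females and Krt8 in males are not drawn, since they were not detected in a whole group; most female points lie left of 0, Lbp lies at 0.31 in males, and the Slc13a4 bars are the widest.

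The pathways that the 7 genes serve were followed with lists of their other genes, and 0 genes of these lists were called in any litter comparison or between the sexes. Of the thyroid hormone transport and response genes, partners of Ttr, 8 were tested with 4 lower in the averaged comparison, and Klf9, a thyroid-responsive factor, gave -0.18 ± 0.12. Of the FGF receptors and ligands that act with klotho, 4 were tested with 2 lower, and Fgfr3 gave -0.08 ± 0.07. Of the angiotensin genes around Ace, 4 were tested with 2 lower: the precursor Agt gave -0.12 ± 0.18, its receptor Agtr1a 0.12 ± 0.15 and the peptidase Mme -0.19 ± 0.08.

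Of the BMP and WNT pathway genes around Sostdc1, 14 were tested with 11 lower in the averaged comparison. Nog, which encodes the BMP antagonist noggin, went the other way in its mean, at 0.37 ± 0.11 (adjusted p = 0.814 in limma), and Bmp4 gave -0.26 ± 0.18. Of 10 tested genes of ion and water transport into cerebrospinal fluid, 4 were lower, and Atp1b2, a sodium pump subunit, gave 0.16 ± 0.10. Of 10 tested folate genes, 3 were lower, and Slc46a1, the proton-coupled folate transporter, gave 0.13 ± 0.10.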

How the data were processed

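Total RNA of 12 hypothalami was hybridised to Illumina bead arrays. The table deposited by the authors holds each probe's bead intensity, by its values neither background-subtracted nor normalized, and a detection p-value. The log2 values that the authors processed, also deposited, served as an alternative. Per the submitters' processing notes they were made with lumi, whose version and settings are unknown here. With 3 arrays a group, the number of arrays limits the precision.

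Probes were named through a supplied annotation of the platform, with a single gene for 18003 of the 20791 probes that have processed values and no entry for 2782. The neqc function of limma 3.58.1 (under R 4.3.3; files were read by the data.table package, version 1.17.8) corrected background by normexp, with negative controls inferred from the detection p-values, added an offset of 16, normalized by quantiles and took log2. The detection rule (below 0.01 on 3 or more of 12 arrays) kept 19704 of 45281 probes, and the probe with the highest mean stood for its gene, which left 13547 features.

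A mean per group was fitted with lmFit and eBayes over all arrays (residual degrees of freedom 8, prior 4.84). The 5 contrasts were 2-sided, and p-values were adjusted by Benjamini-Hochberg across the features. Correlations used permutation tests (100000 resamples), adjusted within their family. The model code was tested on simulated data.

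The members, the 17 other lists and the tests were chosen with earlier results of these data known. All measured members were named, and of each other list up to 4 genes by p in the averaged litter comparison (8 for the other choroid plexus genes). The labels number replicates alike across groups, but the deviations of same-numbered mice correlated at -0.06 to 0.04, so no pairing was used. The labels call the mice separate biological replicates. No slide could serve as a block, since none is named in the sources used here.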

Additional observations from a re-analysis of the deposited data

How the results depend on the processing

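The count of 0 called features in the averaged litter comparison and in each sex was the same with median scaling, with an offset of 50, with no background correction, with the authors' values, with other detection filters, with every probe on its own, with trended and robust eBayes, with array weights and with the replicate block. Leaving out 1 array at a time gave 0 to 1 called features in females, 0 to 662 in males, 0 to 1 averaged and 0 to 190 in the interaction, the 662 and 190 both without male small litter 1, and no member was among the calls of the litter comparisons. The cause was not tested. The count of 631 between the sexes was 344 under median scaling, 1071 under the authors' values, 984 with an offset of 50, 1076 with no background correction, 964 with every probe on its own, 1144 with trended and robust eBayes, 1686 with array weights, 352 with the replicate block, 79 without female control 3 and male control 2, 21 without male small litter 2 and 3, and 124 to 1454 with 1 array left out. Of these, 124 was without female control 3 and 1454 without male small litter 1.

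No pair of members passed the covariation test under any alternative run. Within-group r of Ttr with Ecrg4 was -0.54 without the meningeal arrays female control 3 and male control 2, and -0.40 to 0.021 with 1 array left out, and the median over pairs was 0.62 without those arrays, 0.26 without male small litter 2 and 3, and 0.26 to 0.52 with 1 array left out. The replicate numbers did not pair the samples, and the replicate block called 0 members.

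Some small differences changed sign. The Clic6 interaction was 0.0022 under the authors' values and with no background correction, 0.00029 with an offset of 50, 0.047 under median scaling and 0.078 without the meningeal arrays. Without those arrays the Col8a1 interaction was 0.013, averaged Ecrg4 0.038, male Sostdc1 -0.028 and the second Col8a1 probe 0.015. That probe gave 0.11 without male small litter 2 and 3, the Kl interaction 0.010 with array weights and male Sostdc1 -0.014 under median scaling. With 1 array left out, interactions ran from -0.18 to 0.13 for Clic6, -0.16 to 0.047 for Col8a1 and -0.37 to 0.25 for Kl. Averaged differences ran from -0.22 to 0.029 for Ecrg4, -0.74 to 0.16 for Ttr and -0.16 to 0.030 for the second Col8a1 probe. Female differences ran from -0.18 to 0.062 for Ace and -0.24 to 0.015 for Clic6, and male ones from -0.23 to 0.057 for Clic6 and -0.072 to 0.23 for Sostdc1. Between the sexes they ran from -0.0036 to 0.15 for Clic6, -0.23 to 0.017 for Ecrg4 and -0.71 to 0.19 for Ttr. The cause of these changes was not tested. Averaged Kl, Col8a1 and Ace stayed negative under every alternative run, at -0.72 to -0.23, -0.37 to -0.14 and -0.30 to -0.10. The slide as a block was not run. Weak signal over background limits Kl, Ecrg4, Sostdc1, Ace and Col8a1.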
